A study of Mesocricetus auratus with 8 samples.

Results

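Excitation-contraction coupling is the step by which a muscle fiber turns an electrical signal at its surface into calcium release inside the cell. The genes described here encode 9 of its channel and junction proteins. They are the release channels Ryr1 and Ryr3, the voltage sensor subunits Cacna1s, Cacnb1, Cacng1 and Cacna2d1, the adaptor Stac3, and the junctophilins Jph1 and Jph2. They were picked by gene symbol for their known roles, at a time when earlier results of these data were known. All 9 were found among the 17590 genes with values in the deposited table, and all 9 had enough counts to be tested.

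In skeletal muscle, the voltage sensor sits in the transverse tubule, an infolding of the surface membrane, and touches the release channel of the sarcoplasmic reticulum, the internal calcium store. Cacna1s forms the pore and senses voltage, and Cacnb1, Cacng1 and Cacna2d1 are its partners. Stac3 is needed for the sensor to reach and act on the release channel. Junctophilins hold both membranes close together, so that sensor and channel can meet. Most of these genes are switched on as myoblasts leave the cell cycle and differentiate.

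Primary satellite cells (SCs, the stem cells of skeletal muscle) came from hindlimb muscles of wild-type, sexually mature male Syrian hamsters, a hibernating species, and were enriched by preplating, which removes cells that attach early. The 4 control libraries were made from SCs kept at 37°C in growth medium, before any cold, and carry day 3 in their titles. The 4 cold libraries were made from SCs held for 48 h at 37°C, then for 24 h at 37°C in growth medium with HEPES buffer, and then for 24 h at 4°C. The study's scheme has RNA taken before and after the cold step, which places the HEPES medium in both groups, although the control labels do not name it. No differentiation medium was used in either group. By the study's scheme and the titles, cold libraries were thus collected 24 h later than controls. On that reading no library kept at 37°C for the extra day was analysed here, so time in culture and cold cannot be told apart. The treatment labels of control replicates 1 to 4 read 3, 4, 5 and 6 days at 37°C, against day 3 in all their titles. By those labels, the gap in time would differ between replicate numbers. Libraries are numbered 1 to 4 in each group. The study calls them biological replicates, and what a number marks is not given in the sources used here, so p-values measure the spread between these libraries.

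The libraries held between 16530747 and 18533801 expected counts each. Libraries of the same number deviated together from their group means, and the first principal component (54.5% of the variance) set replicates 1 and 2 apart from 3 and 4 whatever the temperature, while the second (17.9%) set cold apart from control. Each gene is therefore given in 2 edgeR fits, one with the groups alone and one with the replicate number as a block. A difference was called at an adjusted p under 0.05 (Benjamini-Hochberg over 12506 genes), and calls that also passed the study's fold threshold, a log2 fold change of 1 or more in size, are given beside it. All 8 markers of SCs and myoblasts were present, led by Des and Myod1. Of 5 measured leukocyte markers, Ptprc and Adgre1 were at most at 0.03 TPM and Itgam at most at 0.07 TPM in any library, while Cd68 had means of 34.1 and 37.7 TPM and Csf1r of 3.16 and 3.43 TPM (control and cold). Levels are in TPM, which are scaled per transcript length and per library, so that genes can be compared.

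With the replicate number as a block, 8 of the 9 genes fell after cold exposure, with log2 fold changes between −0.22 and −1.92, against 4.07% of all genes tested that fell by the same criterion. None of the 9 rose, against 1.26% of all genes. This use of the adjusted p alone in the blocked fit was added after seeing the data. By the main criterion, both thresholds in the fit without the block, 0 of the 9 were called, against 0.0400% of all genes tested that were called lower. In the blocked fit, Cacng1 and Cacna1s, both parts of the voltage sensor, fell most. Of the 9, only these 2 passed both the adjusted p and the study's fold threshold there. Among all genes tested, 0.808% passed both in that direction. Ryr3 was the exception, with means of 0.418 ± 0.186 TPM before and 0.415 ± 0.137 TPM after the cold (SD, n = 4 each). With no fold threshold, edgeR without the block also called 0 of the 9, against 0.0720% of all genes tested that were called lower. At an unadjusted p under 0.05 in that fit, 7 of the 9 were lower, against 4.13% of all genes. DESeq2, also without the block, called Cacna1s, Cacng1 and Jph2 (3 of the 9) at an adjusted p under 0.05, against 0.924% of the 14394 genes it gave an adjusted p. Cacna1s and Cacng1 (2 of the 9) also passed the fold threshold, against 0.472% of those genes. Limma on log2(TPM + 0.1) called 0, against 0.0290% of 13792 genes, with 7 lower at an unadjusted p under 0.05, against 3.55%.

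The median log2 fold change of the 9 genes was −0.70 without and −0.68 with the block, beside 0.0071 and 0.0075 over all genes tested. In 8 of the 9, each replicate number had its lower value in the cold (4 of 4 pairs), which held for 10.5% of all genes tested. Only Jph2 had control and cold values that did not overlap, a separation in that direction found in 2.41% of all genes. When each replicate number was left out in turn in the blocked fit, an alternative added after seeing the data, 8 of the 9 were called lower each time, against 2.82%, 2.71%, 3.78% and 4.88% of all genes tested without replicates 1 to 4.

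**Figure D1:**
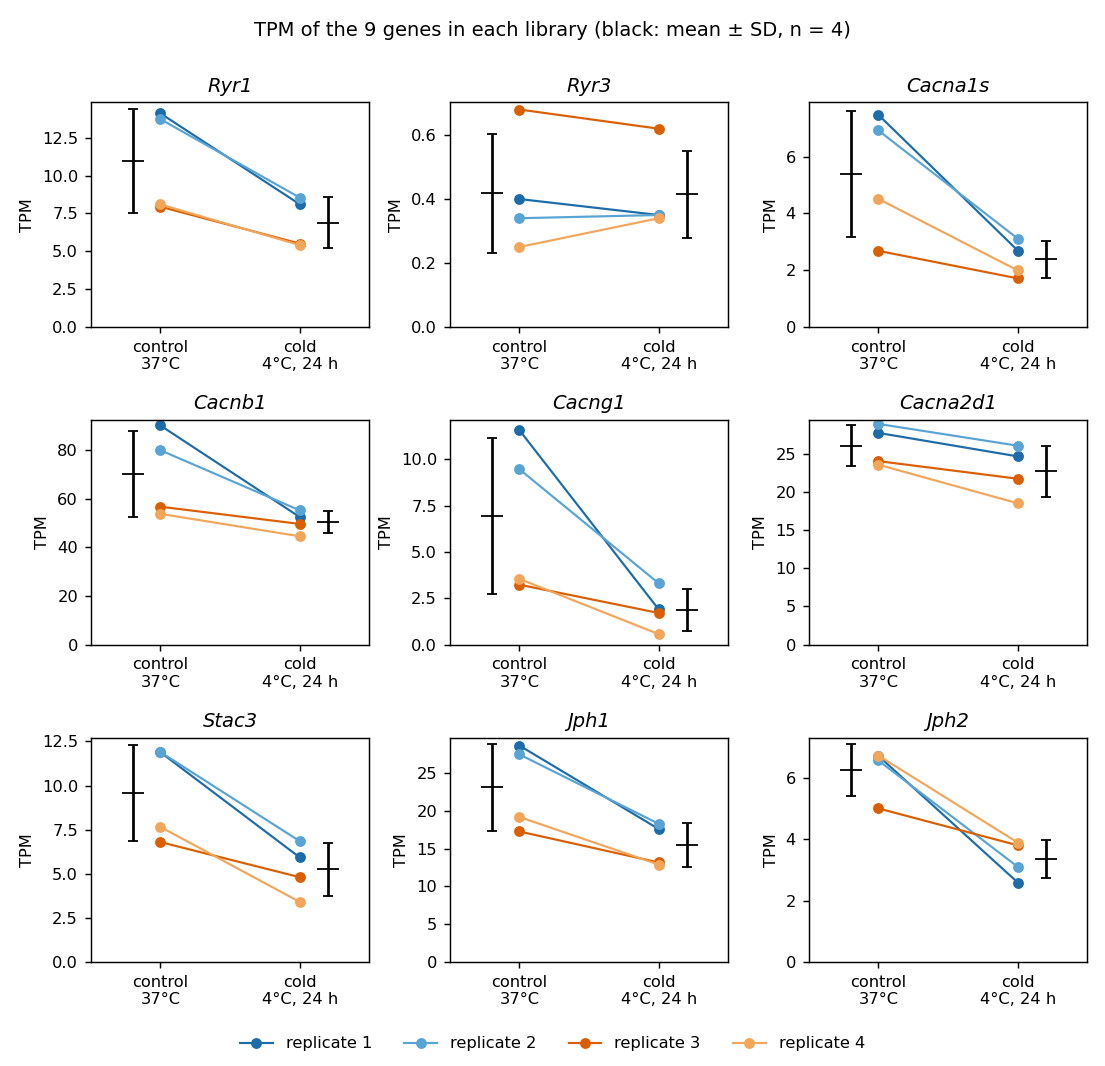
TPM (vertical axis, from 0) of each gene in the 4 control and 4 cold libraries, with lines joining libraries of the same replicate number and black bars for the mean ± SD (n = 4). Lines descend in 4 of 4 pairs for every gene except Ryr3, and the blue points (replicates 1 and 2) lie above the orange points (replicates 3 and 4) in both groups for 7 of the 9 genes.

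Ryr1 (NCBI Gene 101840708) encodes the calcium release channel of the skeletal sarcoplasmic reticulum. It had 14.1, 13.7, 7.95 and 8.10 TPM in control replicates 1 to 4, and 8.11, 8.55, 5.51 and 5.41 TPM in cold replicates 1 to 4. Every cold library was below the control of its own number, yet cold replicates 1 and 2 stood at the level of control replicates 3 and 4, so the groups overlapped. The means were 11.0 ± 3.41 and 6.90 ± 1.67 TPM (SD, n = 4 each; exact two-sided permutation test, p = 0.171). Its log2 fold change by edgeR was −0.70 (SE, the standard error, 0.26, adjusted p = 0.630) without and −0.68 (SE 0.05, adjusted p = 5.16e-08) with the block. Its 4 pairs lay close together, with log2 ratios of −0.80, −0.68, −0.53 and −0.58.

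Ryr3 (101829120), a release channel found in many tissues and in developing muscle, was the scarcest of the 9. It had 0.40, 0.34, 0.68 and 0.25 TPM in control and 0.35, 0.35, 0.62 and 0.34 TPM in cold replicates 1 to 4, from 47 to 121 expected counts. Replicate 3 was the highest library in both groups, and 2 of 4 pairs were lower in the cold. With the block, edgeR gave a log2 fold change of −0.019 (95% interval −0.31 to 0.27, adjusted p = 0.964), and differences inside that interval were not detectable in this fit. The cardiac release channel gene Ryr2, named after its values were seen, was listed at 0 TPM in all 4 control libraries and at no more than 0.01 TPM in any cold library.

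Ryr1 exceeded Ryr3 by a factor of 35.3, 40.4, 11.7 and 32.4 in control replicates 1 to 4 and by 23.2, 24.4, 8.89 and 15.9 in cold replicates 1 to 4. In 4 of 4 pairs the cold library had the lower ratio, with a mean difference of −0.69 ± 0.26 on the log2 scale (SD of the 4 paired differences). The groups overlapped (exact two-sided permutation p = 0.229, adjusted p = 0.314 over 7 ratios tested). Replicate 3 had the lowest ratio in each group.

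Cacna1s (101835763), the pore and voltage-sensing subunit, had 7.47, 6.92, 2.68 and 4.51 TPM in control and 2.69, 3.11, 1.71 and 1.99 TPM in cold replicates 1 to 4. All cold libraries were lower than their own controls, and control replicate 3 lay within the range of the cold group. Its means were 5.40 ± 2.22 and 2.38 ± 0.640 TPM (SD, n = 4 each; exact two-sided permutation p = 0.0857), so that cold libraries held 44.0% of the control level. By edgeR, the log2 fold change was −1.22 (SE 0.34, adjusted p = 0.349) without and −1.19 (SE 0.10, adjusted p = 1.20e-07) with the block. By log2 fold change it ranked 77 from the lowest of 12506 genes.

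Cacng1 (101838313), the gamma subunit of the skeletal sensor, fell most. Its values were 11.6, 9.46, 3.23 and 3.54 TPM in control and 1.89, 3.30, 1.70 and 0.56 TPM in cold replicates 1 to 4. Control replicates 1 and 2 stood far above the rest, and control replicate 3 was just below cold replicate 2. Cold replicate 4 rested on 7 expected counts, the fewest of any library for the 9 genes. In edgeR, its log2 fold change was −1.93 (SE 0.57, adjusted p = 0.415) without and −1.92 (SE 0.22, adjusted p = 5.89e-06) with the block, or 3.79-fold lower. In the blocked fit without single replicate numbers, it ranged from −1.58 to −2.15. In the fit without the block it ranked 26 from the lowest of all genes tested.

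Cacnb1 (101838500), the cytoplasmic beta subunit, was the most abundant of the 9. It had 90.3, 80.1, 56.8 and 53.9 TPM in control and 52.5, 55.3, 49.7 and 44.6 TPM in cold replicates 1 to 4. Cold values spanned a narrower range than control values, and the log2 ratios were −0.78 and −0.53 in replicates 1 and 2 and −0.19 and −0.27 in replicates 3 and 4. This gave a log2 fold change of −0.49 (SE 0.17, adjusted p = 0.557) without and −0.46 (SE 0.07, adjusted p = 0.000251) with the block. Fitted alone, replicates 1 and 2 gave −0.69 and replicates 3 and 4 gave −0.23, and the difference between these was not tested.

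Cacna2d1 (101835530), an extracellular subunit shared by calcium channels of many tissues, changed least among the 8 that fell. It had 27.8, 28.9, 24.1 and 23.6 TPM in control and 24.7, 26.1, 21.7 and 18.5 TPM in cold replicates 1 to 4. The groups overlapped widely, with cold libraries at 87.2% of the control mean. Both fits gave a log2 fold change of −0.22, without (SE 0.13, adjusted p = 0.887) and with the block (SE 0.04, adjusted p = 0.00197).

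The sensor subunits were unequal in level. Cacnb1 exceeded Cacna1s by a geometric mean factor of 13.7 in control and 21.8 in cold libraries, and Cacna2d1 exceeded it by 5.20 and 9.77. Cacna1s was lower relative to each in 4 of 4 pairs, with mean differences of −0.67 ± 0.19 and −0.91 ± 0.33 on the log2 scale (SD of the 4 paired differences). The ratio of Cacna1s to Cacng1 was higher in the cold in 4 of 4 pairs, by 0.82 ± 0.59, with geometric means of 0.841 in control and 1.48 in cold libraries. Exact two-sided permutation tests gave p = 0.0857, 0.0571 and 0.114 for these 3 ratios, with an adjusted p of 0.200 each over the 7 ratios. The ratio of Cacna1s to Ryr1 had geometric means of 0.473 in control and 0.343 in cold libraries and was lower in 4 of 4 pairs (exact permutation p = 0.0857, adjusted p = 0.200). None of the 7 ratios passed the test, and control and cold ratios overlapped in all 7. An exact test that flips the sign of the 4 paired differences gave p = 0.125 for each, the smallest that 4 pairs allow.

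**Figure D2:**
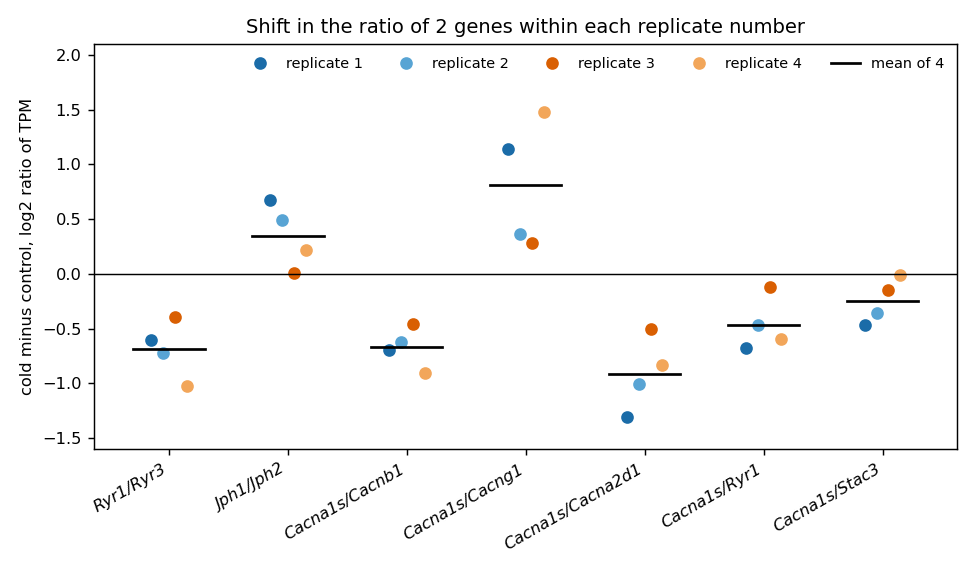
Change in the log2 ratio of the TPM of 2 genes, cold minus control, for each replicate number (points) and its mean (bar), for the 7 pairs tested. All 4 points lie on one side of 0 in every pair of genes, with Cacna1s/Cacng1 above 0 by a mean of 0.82 and Cacna1s/Cacna2d1 below 0 with a mean of −0.91.

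Stac3 (101833697), the adaptor between sensor and release channel, had 11.9, 11.9, 6.80 and 7.66 TPM in control and 5.93, 6.85, 4.81 and 3.41 TPM in cold replicates 1 to 4. Only control replicate 3 lay within the cold range, by 0.05 TPM below cold replicate 2. The means were 9.56 ± 2.72 and 5.25 ± 1.48 TPM (SD, n = 4 each; exact two-sided permutation p = 0.0571). Again by edgeR, the log2 fold change was −0.89 without (SE 0.27, adjusted p = 0.445) and with the block (SE 0.11, adjusted p = 1.31e-05). The ratio of Cacna1s to Stac3 moved by −0.25 ± 0.21 on the log2 scale (SD of the 4 paired differences; exact permutation p = 0.314).

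Jph1 (101835910), the main junctophilin of skeletal muscle, had 28.6, 27.5, 17.3 and 19.2 TPM in control and 17.6, 18.3, 13.2 and 12.9 TPM in cold replicates 1 to 4. As with Ryr1, cold replicates 1 and 2 were near control replicates 3 and 4, and each cold library was below its own control. For Jph1, edgeR gave a log2 fold change of −0.61 (SE 0.21, adjusted p = 0.558) without and −0.59 (SE 0.06, adjusted p = 8.22e-07) with the block.

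Jph2 (110343700), the junctophilin shared with the heart, had 6.71, 6.56, 5.00 and 6.72 TPM in control and 2.59, 3.10, 3.80 and 3.89 TPM in cold replicates 1 to 4. Every cold library was below every control library (exact two-sided permutation p = 0.0286, the smallest that 4 against 4 allow). Unlike the other 7 that fell, its lowest cold libraries were replicates 1 and 2. Its edgeR log2 fold change was −0.93 (SE 0.15, adjusted p = 0.0709) without the block, the lowest adjusted p of the 9 in that fit, and −0.92 (SE 0.11, adjusted p = 1.01e-05) with it. DESeq2 without the block gave an adjusted p of 4.53e-06 for Jph2, and edgeR with no filter on low counts 0.0410, both short of the fold threshold. Without control replicate 3 in the unblocked fit, its log2 fold change was −1.03 with an adjusted p of 0.0249, past both thresholds, whereas the 7 other fits without 1 library gave −0.82 to −1.01 and none was called. In the blocked fit it was −0.77, −0.86, −1.10 and −0.99 without replicates 1 to 4. Fitted alone, replicates 1 and 2 gave −1.29 and replicates 3 and 4 gave −0.59 (adjusted p = 0.227), and the difference between these was not tested.

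The ratio of Jph1 to Jph2 was 4.27, 4.19, 3.45 and 2.86 in control and 6.79, 5.90, 3.47 and 3.31 in cold replicates 1 to 4. It was higher in the cold in 4 of 4 pairs, but in replicate 3 by only 0.0049 on the log2 scale. The difference did not pass the test (exact two-sided permutation p = 0.314).

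**Figure D3:**
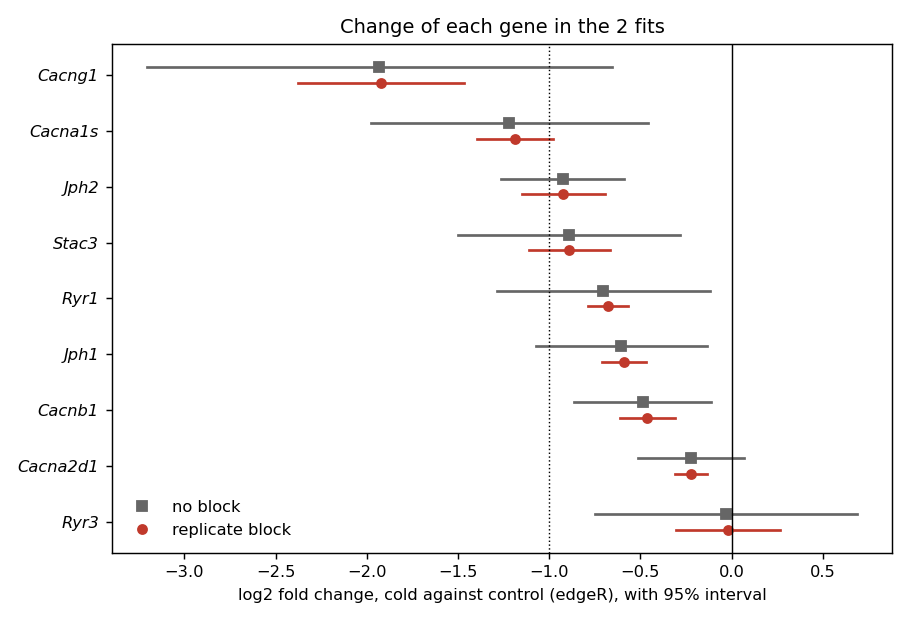
Log2 fold change of each gene (horizontal axis) with its 95% interval from edgeR, without a block (grey squares) and with the replicate number as a block (red circles); the dotted line marks a log2 fold change of −1. Estimates nearly coincide while intervals narrow with the block, for Ryr1 from −1.28 to −0.12 without it to −0.79 to −0.57 with it.

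Ordered by control TPM, Cacnb1 (70.2) stood above Cacna2d1 (26.1) and Jph1 (23.1), then came Ryr1 (11.0), Stac3 (9.56), Cacng1 (6.95), Jph2 (6.25) and Cacna1s (5.40), and Ryr3 (0.418) was last. Over control libraries, Cacna2d1 and Jph1 did not differ beyond their spread (exact permutation p = 0.343), nor did any neighbours from Ryr1 down to Cacna1s (exact permutation p between 0.343 and 0.771). That test sets aside that both genes come from the same libraries, and within libraries Ryr1 was above Stac3, and Stac3 above Cacng1, in 4 of 4 controls. In the cold the order from Cacnb1 to Stac3 was the same, and Jph2 (3.35), Cacna1s (2.38) and Cacng1 (1.86) followed. Cacna2d1 and Jph1 no longer overlapped there (exact permutation p = 0.0286, unadjusted). Cacng1 was sixth in control and eighth in the cold, but neighbours from Ryr1 down to Cacng1 overlapped there too (exact permutation p between 0.0857 and 0.514). Because the Ryr1 transcript is long, 1 TPM of Ryr1 corresponded to a mean of 185 expected counts, against 12.6 for Cacng1, which makes Ryr1 the more precisely counted.

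In both groups the genes also varied with replicate number. Control replicates 3 and 4 were both below control replicates 1 and 2 in 7 of the 9 genes, against 19.0% of all genes tested, and the cold libraries showed the same order in 7 of the 9, against 26.5%. Ryr3 and Jph2 did not follow this order in either group. For Ryr1, the control mean was 13.9 TPM in replicates 1 and 2 and 8.03 TPM in replicates 3 and 4, a log2 difference of −0.80, beside −0.70 between cold and control. For Cacng1 the corresponding values were 10.5 and 3.39 TPM, a log2 difference of −1.64.

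**Figure D4:**
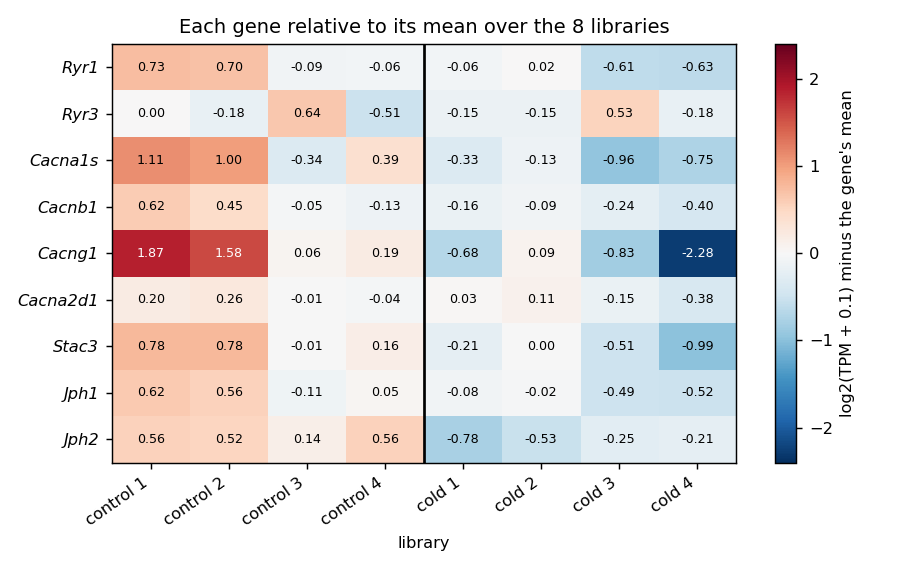
Log2(TPM + 0.1) of each gene minus its mean over the 8 libraries (color and number in each cell), with control libraries left and cold libraries right of the line. Control replicates 1 and 2 hold the highest values of Ryr1 (0.73 and 0.70), Cacna1s, Cacnb1, Cacng1, Cacna2d1, Stac3 and Jph1, whereas Ryr3 is highest in replicate 3 of both groups.

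Genes of differentiating myocytes also fell. The list held 11 measured genes (Myog, Mymk, Mymx, Mef2c, Myh3, Acta1, Actn2, Ckm, Tnnt3, Tnni1 and Tnnc2), of which the study singled out Mef2c, Myh3 and Acta1 on these libraries. Without the block edgeR called 0 of the 11, with 8 at an unadjusted p under 0.05. In the blocked fit 11 of 11 fell, against 4.07% of all genes tested, with a median log2 fold change of −1.19. Their summed level was 5584, 5626, 3143 and 3271 TPM in control and 2550, 2922, 2072 and 1852 TPM in cold replicates 1 to 4, highest in the same control libraries as Ryr1. In bulk RNA, fewer differentiating cells and less RNA per cell cannot be told apart.

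Per 1000 TPM of that summed level, a division added after seeing the data and described without a test, Ryr1 had between 2.44 and 2.53 TPM in control libraries and between 2.66 and 3.18 TPM in cold libraries. On this scale Stac3 lay between 2.12 and 2.34 in control and between 1.84 and 2.34 in cold libraries. Ryr1, Ryr3, Cacnb1, Cacna2d1 and Jph1 were higher in the cold in 4 of 4 pairs on this scale, Stac3 in 3 of 4 and Jph2 in 2 of 4, whereas Cacna1s and Cacng1 were lower in 4 of 4. The summed level itself fell in 4 of 4 pairs. A gene that fell less, or hardly changed, as Ryr3 did, therefore comes out higher by the division alone. The share of all genes that were higher on this scale was not computed. The fibroblast list (6 genes measured, among them Pdgfra, Col1a1 and Dcn) had 0 of 6 called in either edgeR fit, and 0 and 1 at an unadjusted p under 0.05 without and with the block. Its summed level was 998 to 1509 TPM in control and 984 to 1468 TPM in cold libraries, and it was higher in replicates 3 and 4 of both groups. Of 6 tested smooth muscle and pericyte genes, 1 (Acta2, also expressed in myoblasts) was called lower with the block, against 4.07% of all genes tested. The part of cell composition in the results was not tested.

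Other members of the same gene families were also measured. Those that were called are named here, with Cacnb3 and Cacna1a, which were not. Of 27 listed paralogues, 26 had values and 16 were tested. In the blocked fit 3 fell and 0 rose, against 4.07% and 1.26% of all genes tested. Without the block edgeR called 0, with 3 at an unadjusted p under 0.05. The median log2 fold change of the 16 was −0.049 with the block. Stac2, a relative of Stac3, had 3.68 ± 1.31 TPM in control and 1.53 ± 0.417 TPM in the cold (SD, n = 4 each) and fell with the block (log2 fold change −1.29, adjusted p = 1.92e-06). Cacna1h, a low-voltage T-type channel, fell from 0.478 ± 0.0222 to 0.180 ± 0.0560 TPM (SD, n = 4 each; log2 fold change −1.43, adjusted p = 0.000220 with the block). Cacng6, a gamma subunit of muscle, fell from 5.75 ± 1.2 to 4.21 ± 0.443 TPM (SD, n = 4 each; log2 fold change −0.47, adjusted p = 0.0135 with the block). The other beta subunit of some abundance, Cacnb3, chosen after its values were seen, had 11.7 ± 3.43 and 12.4 ± 3.84 TPM (SD, n = 4 each; log2 fold change 0.067 with the block, not called). Cacna1a, another pore subunit chosen in the same way, had 3.735 ± 1.87 TPM in control and 3.975 ± 1.61 TPM in the cold (SD, n = 4 each; log2 fold change 0.10 with the block, not called).

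Of 31 symbols for partners at the triad and in the transverse tubule, 30 had values (Mg53, an older name of Trim72, was the other), and 28 were tested. Without the block, edgeR gave 10 of the 28 an unadjusted p under 0.05. In the blocked fit the median log2 fold change over the 28 was −0.081. There 10 fell and 0 rose, against 4.07% and 1.26% of all genes tested. The most abundant of the 10 were Ehd4 (−0.25, adjusted p = 0.000506), Bin1 (−0.29, 0.00189), Srl (−1.47, 5.29e-11), Trim72 (−0.78, 3.30e-06) and Klhl40 (−0.52, 7.60e-05), by log2 fold change and adjusted p from edgeR. Bin1 shapes transverse tubules, Ehd4 acts in membrane traffic, Srl (sarcalumenin) binds calcium in the sarcoplasmic reticulum, Trim72 acts in membrane repair, and Klhl40 stabilizes thin filament proteins. Dysf and Cav3 were named after their values were seen. Dysf, a membrane repair ferlin, was the only gene of the list called without the block, at 4.16 ± 0.443 and 2.15 ± 0.328 TPM (SD, n = 4 each; log2 fold change −0.97, adjusted p = 0.0454 with edgeR). Cav3, the muscle caveolin of forming transverse tubules, had the lowest log2 fold change of the list, −2.15 with the block (adjusted p = 5.91e-07).

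For the calcium store and store-operated entry, 15 of 19 genes were tested, with a median log2 fold change of 0.025 in the blocked fit. In that fit 3 fell and 0 rose, against 4.07% and 1.26% of all genes tested. Without the block edgeR called 0 of the 15, with 4 at an unadjusted p under 0.05. Casq2, a calcium buffer of the store, fell from 16.1 ± 8.89 to 3.16 ± 1.01 TPM, Hrc, which binds calcium beside it, from 2.58 ± 1.10 to 0.535 ± 0.0557 TPM, and the calcium pump gene Atp2a1 from 9.19 ± 0.737 to 6.79 ± 0.335 TPM (SD, n = 4 each). Their log2 fold changes with the block were −2.34, −2.27 and −0.45 (edgeR adjusted p = 1.99e-10, 3.19e-07 and 0.00101).

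**Figure D5:**
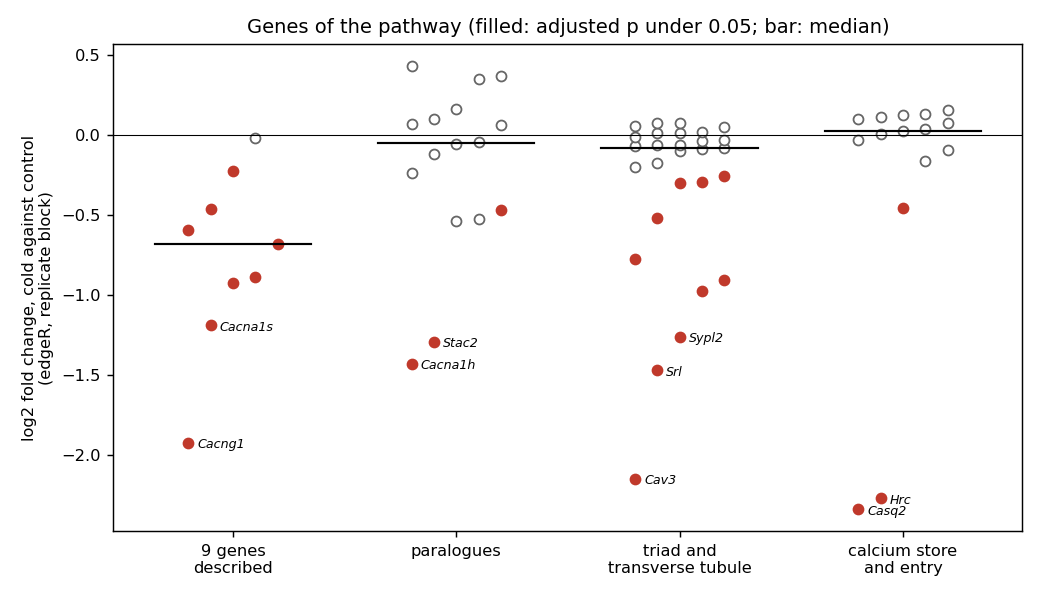
Log2 fold change from the edgeR fit with the replicate block (vertical axis) for the 9 genes and for the tested genes of 3 lists, with filled points for an adjusted p under 0.05 and a bar at each median. Filled points number 8 of 9, 3 of 16, 10 of 28 and 3 of 15, all below 0, against 4.07% of all genes tested. Names mark those below −1.

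The genes with the most similar pattern over the 8 libraries were found for Ryr1, Cacna1s and Stac3 by the root mean square difference of centered log2(TPM + 0.1), among 10500 other genes of at least 1 TPM on average. For Ryr1 they were Actc1 (0.075), the cardiac alpha-actin also made by developing skeletal muscle, Atcay (0.093) and Jph1 (0.093). For Cacna1s they were Svil (0.153), an actin-binding protein, Hjv (0.174) and the titin-associated Ankrd23 (0.175). For Stac3 they included the muscle kelch protein Klhl41 (0.132) and again Hjv (0.144). Among the 9 genes themselves, Ryr1 and Jph1 were the most alike (0.093), and Ryr3 and Cacng1 the least (1.32).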

How the data were processed

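RNA-seq libraries (poly(A) RNA, paired-end) of 4 control and 4 cold SC cultures were analysed. HISAT and HISAT2 are listed in the submitters' processing notes without roles, and the counting program and genome build are not given in the sources used here. The expected counts were made by the authors per gene and library, are not normalized, and were whole numbers for 96.4% to 96.6% of genes and for all 9 genes described. The TPM values deposited by the authors are scaled per library and transcript length. The normalized counts deposited by the authors are a signal scaled by 1 factor per library and served as an alternative.

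After rounding, the expected counts were tested in edgeR 4.0.16 (R 4.3.3; filterByExpr, TMM, quasi-likelihood F test, cold against control), without and with the replicate number as a block. The deviations of same-numbered control and cold libraries from their group means correlated at 0.61, 0.62, 0.65 and 0.66 across 12506 genes, so the numbers, shared by titles and column names, were taken to pair the libraries. Different numbers within replicates 1 and 2 correlated at 0.57 and 0.59 and within replicates 3 and 4 at 0.43 and 0.47, and numbers across these 2 sides between −0.55 and −0.61. Standard errors are the absolute log2 fold change over the square root of F, and intervals are 95%. Single values were compared by exact two-sided permutation over 70 arrangements. Alternatives used DESeq2 1.42.0, limma 3.58.1 on log2 TPM, other factors and filters, and subsets of libraries. The fits were tested on simulated data.

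The genes, lists and tests were chosen with earlier results of these data known. Named are the 9 genes, the list genes called in either fit (the 5 most abundant where more were called) and the 3 genes nearest in pattern to Ryr1, Cacna1s and Stac3, of which 1 is not reported here, beside markers of cell types. Marker lists also covered mature fibers (3 of 4 tested genes fell with the block), SCs and myoblasts (4 of 8), cardiac muscle (1 of 1), and endothelium, leukocytes and neurons and Schwann cells (0 of 3, 2 and 3). Of all genes tested, 4.07% fell by this criterion. The cardiac gene tested was Tnnt2, and Nppa, Nppb, Tnni3 and Mybpc3 had too few counts to be tested. Identifiers of all 9 matched RefSeq (BCM_Maur_2.0), used for names only. No sequence is printed.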

Additional observations from a re-analysis of the deposited data

Results flagged for a closer look

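In groups of 4 libraries, a highest or lowest value was singled out where its gap to the nearest other value exceeded Dixon's 95% critical value, as a share of the group's range. Of 18 groups tested, 2 were singled out, and chance gives about 1 in 20, or 0.9 here. In cold libraries, Ryr3 in replicate 3 (0.62 TPM, against 0.34 to 0.35 TPM in the others) had a gap of 0.964 of the range. In control libraries, Jph2 in replicate 3 (5.00 TPM, against 6.56 to 6.72 TPM in the others) had a gap of 0.907 of the range. Without cold replicate 3, the log2 fold change of Ryr3 was −0.29 (edgeR, not called), and without control replicate 3 that of Jph2 was −1.03 and was called.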

How the results depend on the processing

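Each of the 8 genes that fell with the replicate block had a negative log2 fold change in all 24 other fits run. Only Ryr3 changed sign. It was 0.024, 0.0015 and 0.038 with limma at pseudocounts of 0.1, 1 and 0.01 TPM, 0.024 with limma and no filter, and 0.065 in replicates 3 and 4 alone. It ranged from −0.29 to 0.28 when single libraries were left out and from −0.14 (without replicate 4) to 0.054 (without replicate 1), with 0.038 without replicate 3, in the blocked fit, and it was called in none of these.

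At both thresholds, the number of the 9 genes called was 0 in the edgeR fit without the block, 2 with the replicate block, 2 with DESeq2, 3 in replicates 1 and 2 alone, 0 in replicates 3 and 4 alone, 0 to 1 when single libraries were left out, and 2 to 3 when replicate numbers were left out of the blocked fit. With no fold threshold it was 8 with the block, and 8 to 8 without single replicate numbers. Over all genes, 5 were called, against 106 with the replicate block, 68 with DESeq2, 8 with library totals, 15 with no filter, 3 with a mean of at least 10 counts, 3 with limma at each of the 3 pseudocounts, 183 in replicates 1 and 2 alone, 28 in replicates 3 and 4 alone, 9 with no fold threshold and 667 with the block and no fold threshold. Leaving out single libraries gave 0 to 34 (34 without control replicate 3), and leaving out replicate numbers in the blocked fit gave 88, 101, 135 and 117 (without replicates 1 to 4), or 394, 356, 574 and 927 with no fold threshold. The cause was not tested. The 7 ratios kept their sign in every alternative run. The alternatives without a replicate number (3 against 3) and the sign flips could not pass the test by design.

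Levels of Cacng1 and Ryr3 rest on at most 144 and 121 expected counts per library.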
